A study of Drosophila melanogaster with 12 samples.

Results

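The fly transporter genes Oatp74D, E23, Orct2 and Orct are described here across larval ages in type II neuroblasts, 4 out of 15339 genes in the deposited count table. They were chosen by name and transporter role once their read counts in these same libraries were known, above all the difference between 50 h and 36 h. Their levels and differences between ages are therefore given as a description with no p-value. All 4 were found in the count and TPM tables, and all 4 passed the filter on low counts that left 7978 genes.

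The cells came from the larval central nervous system at 24, 36, 50 or 84 h after hatching, with 3 libraries at each age and 12 in all. Per the labels, larvae were kept at 25 °C, and GFP-labelled cells were picked from dissociated brains by a robotic sorter, 93 to 132 cells per library. Each library is a pool of cells from many brains, and its RNA was amplified before sequencing. ERCC RNA, a set of synthetic RNAs, was added in equal amount to all libraries. The labels name neither the genotype, nor the driver of the GFP, nor the sex of the larvae, and they name no treatment at any age. Whether the libraries of an age stem from separate dissections is not stated, and p-values cover only the variation among libraries, part of which may be technical.

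Type II neuroblasts are brain stem cells that divide through intermediate progenitors and so build large lineages. Ecdysone is the steroid hormone that times insect growth and metamorphosis. It acts inside the cell, where its active form binds a dimer of the nuclear receptors EcR and Usp, and larval neuroblasts are known to need EcR for part of their switch in gene expression with age. Oatp74D, also named Ecdysone Importer, is a membrane carrier of the organic anion transporting family that brings ecdysone into fly cells. E23 is an ATP-driven transporter of the ABCG family, found as an ecdysone-induced gene, and forced expression of E23 dampens ecdysone responses. Orct2, also named calderon, and Orct are carriers of the organic cation transporter family, and Orct2 is known to be needed for tissue growth.

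Gene counts per library ranged from 4512098 to 8391731, and a floor of 3 counts corresponded to 0.448 to 0.667 CPM. CPM is a gene's share of all gene counts, scaled to a common total after TMM, a scaling that takes most genes as alike between libraries. Intervals on counts cover counting error only, because amplified reads are not independent molecules. The 13 listed neuroblast markers together held 3227 to 4933 CPM in single libraries, with wor, dpn and mira all at over 100 CPM at every age, while ase, low in type II neuroblasts, stood at 3.28 to 7.69 CPM on average. Of the 12 tested, tll was called 1.97-fold lower at 84 h than at 50 h (edgeR, adjusted p = 0.004955). Over all genes 1.89% were called lower there, and the list's median log2 difference was -0.35. The markers esg, tll and grh were called lower at 84 h than at 24 h, beside 10.7% of all genes. None of these falls was called under ERCC totals. Some, but not all, markers of glia were low, among them markers of surface glia, where several transporters of the blood-brain barrier are made. Mdr65 averaged 0.699 CPM or less at every age and moody 14.3 or less, and the glial factor repo 1.89 or less. Other genes of the 12-gene glia list were abundant, with nrv2 at 285 to 329 CPM on average over the ages, and the list summed to 958 to 1197 CPM in single libraries at 50 h, against 623 to 1067 CPM at 36 h. The glutamate transporter gene Eaat1 fell to 93.7 ± 3.04 CPM at 84 h, against 208 ± 15.8 CPM at 50 h (edgeR, adjusted p = 0.000245, range over the alternatives 9.31e-08 to 0.678, the last under ERCC totals), the interval in which Oatp74D was also lower, whereas at 36 h it averaged 255.5 CPM. The 8 surface glia markers found summed to 439 to 642 CPM at 50 h, against 109 to 427 at 36 h, most of it from the sugar transporter Tret1-1, whose mean was 475 CPM at 50 h, against 222.0 CPM at 36 h. Hemocyte and fat body markers, 8 found, summed to 11.3 CPM or less in any library. Of the neuron genes, brp had its highest mean at 50 h, 13.0 ± 10.8 CPM (SD over the 3 libraries of an age, as in all such values), and Syt1 its highest, 3.99 ± 4.61 CPM, at the same age as Oatp74D, while the 7 neuron markers found summed to 261 to 304 CPM at 50 h, against 202 to 299 at 36 h, most of it from elav. Over the 6 neuron markers tested the median log2 difference was 1.21 for 50 h against 36 h, with 5 above 0, and -1.45 for 84 h against 50 h, beside 0.03 and -0.01 over all genes, so most of this list was higher and then lower in the same intervals as Oatp74D. In it brp was called lower at 84 h than at 50 h, 9.0-fold (adjusted p = 0.0495, range 0.00537 to 0.391), a call lost in 7 leave-outs. Over the 8 glia markers tested the median log2 difference was 0.45 for 50 h against 36 h, with 4 above 0. For 84 h against 50 h it was -0.58, with 2 above 0. The 6 surface glia markers tested had medians of 0.47 and 0.15 in these 2 comparisons, with 4 and 3 above 0. Of the 8 glia markers tested, Indy, alrm and Gs2 had their highest mean at 50 h, like Oatp74D. Indy, also a surface glia marker, had 28.85 CPM at 50 h, against 15.04 CPM at 36 h and 11.88 CPM at 84 h. At 50 h alrm averaged 5.504 CPM and Gs2 2.254 CPM. By contrast, nrv2 and Eaat1 were highest at 36 h, moody and Gli at 24 h and Tret1-1 at 84 h. The part of other cells in the transporter values was not tested, and in pooled cells fewer cells with a transcript cannot be told apart from less of it per cell.

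Oatp74D (FBgn0036732), the ecdysone importer, was a transcript of the 50 h cells. At 24 h its libraries held 15.4, 23.8 and 8.53 CPM, at 36 h 127, 50.2 and 55.0 CPM, at 50 h 717, 569 and 704 CPM, and at 84 h 52.0, 20.0 and 10.1 CPM. All 3 libraries at 50 h stood above every library of the other ages, and the highest of those was replicate 1 at 36 h. Levels at 84 h overlapped those at 36 h and at 24 h, so the high level was seen at 50 h only among these ages. The mean was 663 ± 82.1 CPM at 50 h, against 77.4 ± 43.0 CPM at 36 h, a fitted log2 difference of 3.10 ± 0.61 (SE) or 8.57-fold. At 36 h it was already 4.79-fold higher than at 24 h, with 77.4 ± 43.0 CPM against 15.9 ± 7.65 CPM (log2 2.26 ± 0.63). At 84 h it averaged 27.3 ± 21.9 CPM, 24.3-fold lower than at 50 h (log2 -4.60 ± 0.66), or 43.6-fold lower without replicate 1 of 84 h. Set against 24 h, the level at 84 h differed by a log2 value of 0.76 ± 0.63, which turned to -0.09 without that same library.

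E23 (FBgn0020445), the ecdysone-induced ABC transporter, ran the other way between 36 and 50 h and was a transcript of the young cells. Like Oatp74D, E23 was lower at 84 h than at 50 h. It had 816, 787 and 567 CPM in the 24 h libraries, 327, 771 and 508 CPM at 36 h, 12.4, 45.5 and 6.53 CPM at 50 h, and 3.79, 2.70 and 2.61 CPM at 84 h. The 24 h and 36 h libraries overlapped, and every library at 50 h lay below every one at 36 h and above every one at 84 h. The step lay between 36 and 50 h, where the mean was 21.5 ± 21.0 CPM at 50 h, against 536 ± 223 CPM at 36 h, 25.2-fold lower (log2 -4.66 ± 0.66). Replicate 2 of 50 h, with 217 counts, held most of what was left at that age, and without it the 50 h level was 56.3-fold below 36 h and the 84 h level only 3.13-fold below 50 h, in place of 6.98-fold. By 84 h the mean was 3.03 ± 0.654 CPM, against 724 ± 136 CPM at 24 h, 238-fold lower (log2 -7.89 ± 0.80). The 84 h libraries still held 22, 18 and 15 counts of E23, above the floor of 3 counts. In the authors' TPM, a level per transcript length scaled to a common total, E23 is listed at 0 in all 3 libraries of 84 h and in replicate 3 of 50 h, which had 33 counts. Such a listing at 0 with at least 15 counts occurred in 0.0609% of 80524 pairs of gene and library, so the TPM of E23 at these ages is not used for a fold.

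**Figure D1:**
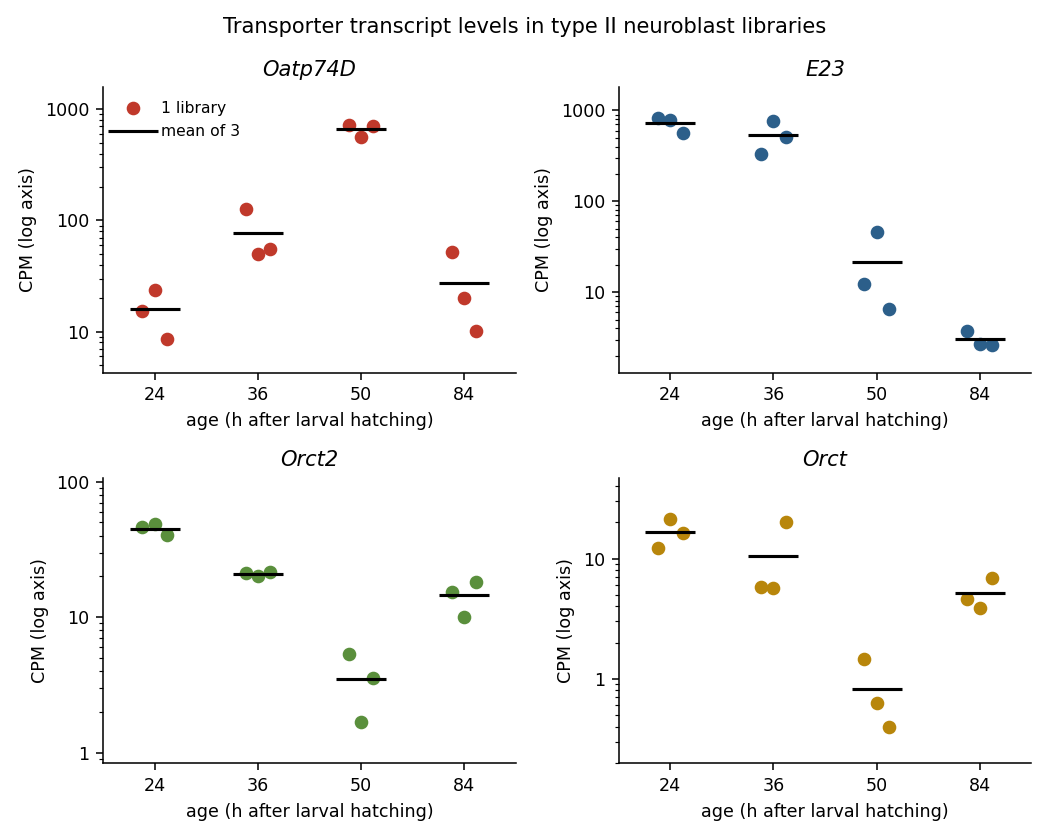
Level of each transporter in CPM (log axis) against age in h after larval hatching. Points are the 3 libraries of an age and bars their mean. Oatp74D has its highest libraries at 50 h (569 to 717 CPM), E23 is highest at 24 and 36 h and at 2.61 to 3.79 CPM at 84 h, and Orct2 and Orct are lowest at 50 h.

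The count of Oatp74D over that of E23 in the same library does not depend on how libraries are scaled. Oatp74D had 0.0188, 0.0302 and 0.0150 counts for each E23 count in the 24 h libraries and 0.388, 0.0652 and 0.108 in the 36 h libraries. At 50 h the ratio was 57.7, 12.5 and 107.8, and at 84 h 13.7, 7.39 and 3.87. In counts, E23 exceeded Oatp74D in every library of 24 and 36 h and Oatp74D exceeded E23 in every library of 50 and 84 h. No library of one age overlapped a library of another age in this ratio except between 50 and 84 h, where the lowest at 50 h (12.5) lay under the highest at 84 h (13.7). The median ratio was 534-fold higher at 50 h than at 36 h and 3060-fold higher at 50 h than at 24 h. At 84 h it was 7.81-fold lower than at 50 h. These ratios compare counts, which also depend on transcript length. On the TPM, which is per length, Oatp74D averaged 487 ± 66.6 at 50 h, above 98.3% of the listed symbols. E23 averaged 362 ± 51.8 TPM at 24 h, and 97.6% of symbols lay below its 294 ± 125 TPM at 36 h.

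**Figure D2:**
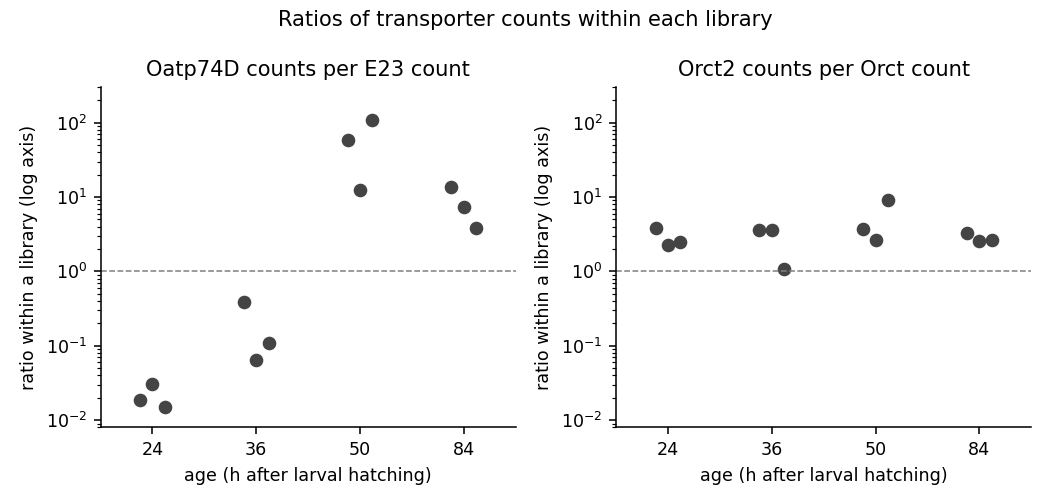
Ratio of counts within each library (log axis) against age in h after larval hatching, with 1 point per library and a dashed line at a ratio of 1. Left, Oatp74D over E23 lies between 0.0150 and 0.388 in the 24 and 36 h libraries and between 3.87 and 107.8 in those of 50 and 84 h. Right, Orct2 over Orct is above 1 in all 12 libraries.

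Orct2 (FBgn0086365) and Orct (FBgn0019952) shared a course that E23 and Oatp74D did not, highest at 24 h, lowest at 50 h and in between at 84 h. Orct2 had 46.6, 48.4 and 40.1 CPM in the 24 h libraries, 21.1, 20.2 and 21.7 CPM at 36 h, 5.32, 1.68 and 3.56 CPM at 50 h and 15.5, 10.1 and 18.2 CPM at 84 h. No 2 ages overlapped. The mean of 3.52 ± 1.82 CPM at 50 h, against 21.0 ± 0.739 CPM at 36 h, was 5.85-fold lower (log2 -2.55 ± 0.39). The level at 84 h, 14.6 ± 4.16 CPM, was 4.06-fold higher than at 50 h (log2 2.02 ± 0.38) and still 3.09-fold below the 45.0 ± 4.36 CPM of 24 h (log2 -1.63 ± 0.35). Between 36 h and 24 h the difference was a log2 value of -1.10 ± 0.35.

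Orct averaged lower than Orct2 at every age, in CPM and also per length in TPM. It had 12.3, 21.4 and 16.2 CPM at 24 h, 5.78, 5.65 and 20.3 CPM at 36 h, 1.45, 0.629 and 0.396 CPM at 50 h and 4.65, 3.91 and 6.95 CPM at 84 h. The 50 h values rest on 9, 3 and 2 counts, whose exact 95% Poisson intervals run from 4.12 to 17.1, from 0.619 to 8.77 and from 0.242 to 7.23 counts, so 2 of these libraries stood at or under the floor of 3 counts. All 3 libraries at 50 h were below all others, whereas 36 h overlapped 24 h through its replicate 3 and overlapped 84 h through the other two. Orct averaged 0.826 ± 0.555 CPM at 50 h, against 10.6 ± 8.42 CPM at 36 h, a 12.2-fold lower level (log2 -3.61 ± 0.66). That fold was 6.61 without replicate 3 of 36 h and 20.0 without replicate 1 of 50 h. Orct was 5.94-fold higher at 84 h than at 50 h (log2 2.57 ± 0.66), or 9.74-fold without replicate 1 of 50 h, and 3.21-fold lower at 84 h than at 24 h (log2 -1.68 ± 0.56). At 36 h it was 1.56-fold lower than at 24 h, or 2.90-fold lower without replicate 3 of 36 h. The 2 genes kept a similar proportion over the ages. The median count of Orct2 for each Orct count was 2.47, 3.58, 3.67 and 2.63 over the 4 ages from young to old, with a range of 1.07 to 9.0 over the 12 libraries. On the TPM the same ratio ran from 0.910, the only library with more Orct than Orct2, to 6.77. Per length, Orct2 averaged 40.4 ± 3.22 TPM and Orct 15.7 ± 4.79 TPM at 24 h, and at 50 h they stood at 2.58 ± 1.54 and 0.720 ± 0.301 TPM. Orct2 and Orct are neighbours and relatives, and reads that match both could have been assigned to either.

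How alike the 3 libraries of an age were differed by age within each gene. For Orct2 the coefficient of variation ran from 3.52% at 36 h to 51.8% at 50 h. It ran from 18.8% at 24 h to 97.8% at 50 h for E23, and from 27.5% at 24 h to 79.6% at 36 h for Orct. The 3.52% rests on 95, 93 and 110 counts, whose exact 95% Poisson intervals overlap, and nothing is read from so small a spread. For Oatp74D the value was 80.1% at 84 h. Oatp74D was most even at its peak, with 12.4% at 50 h.

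Counted over the 4 genes, the later and the earlier libraries did not overlap for 2 genes between 36 and 24 h, where edgeR called 0.451% of all 7978 genes higher and 0.451% lower at an adjusted p under 0.05. For 50 h against 36 h they did not overlap for 4 genes, beside 1.88% called higher and 2.37% called lower over all genes. For 84 h against 50 h the number was again 4, beside 1.17% higher and 1.89% lower, and for 84 h against 24 h 3 genes, beside 8.16% higher and 10.7% lower. The edgeR shares are an unlike and stricter measure, and the share of all genes whose libraries did not overlap was not computed. Nothing is read from these counts, since the genes were chosen on such differences. By size of the fitted log2 value in its own direction among all 7978 genes, E23 ranked 1585 for 36 h against 24 h, 5 for 50 h against 36 h, 58 for 84 h against 50 h and 3 for 84 h against 24 h. In the same order of comparisons Oatp74D ranked 186, 80, 9 and 1581, Orct2 426, 41, 54 and 350, and Orct 949, 14, 25 and 323.

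The share of spike-in RNA in the libraries varied, with 106 to 832 gene counts for each ERCC count, so scaling to ERCC totals shifts all genes. Under it the median log2 value over all genes was 0.86 for 36 h against 24 h, 1.10 for 50 h against 36 h, -0.48 for 84 h against 50 h and 1.48 for 84 h against 24 h, while under TMM it was within 0.03 of 0. For 50 h against 36 h the log2 value under ERCC totals was 4.26 ± 0.70 for Oatp74D, -3.81 ± 0.69 for E23, -2.48 ± 1.03 for Orct and -1.27 ± 0.80 for Orct2. Relative to the median of all genes these values were 3.16, -4.91, -3.58 and -2.37, beside 3.07, -4.69, -3.64 and -2.58 with TMM. Signs turned for 36 h against 24 h, where E23 went to 0.48 ± 0.61 and Orct to 0.35 ± 0.91 under ERCC totals, against -0.43 ± 0.55 and -0.64 ± 0.55 with TMM. For 84 h against 24 h Orct and Orct2 came near 0 under ERCC totals, at -0.24 ± 0.92 and -0.21 ± 0.77. Per 1000 ERCC counts, Oatp74D averaged 335 ± 266 counts at 50 h, against 17.4 ± 8.78 at 36 h, and E23 averaged 8.70 ± 6.02 at 50 h, against 121 ± 45.1 at 36 h. The age of the lowest mean level stayed the same for all 4 genes under ERCC counts, TPM and unscaled CPM, and the age of the highest moved to 36 h for E23 and Orct under ERCC counts only.

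**Figure D3:**
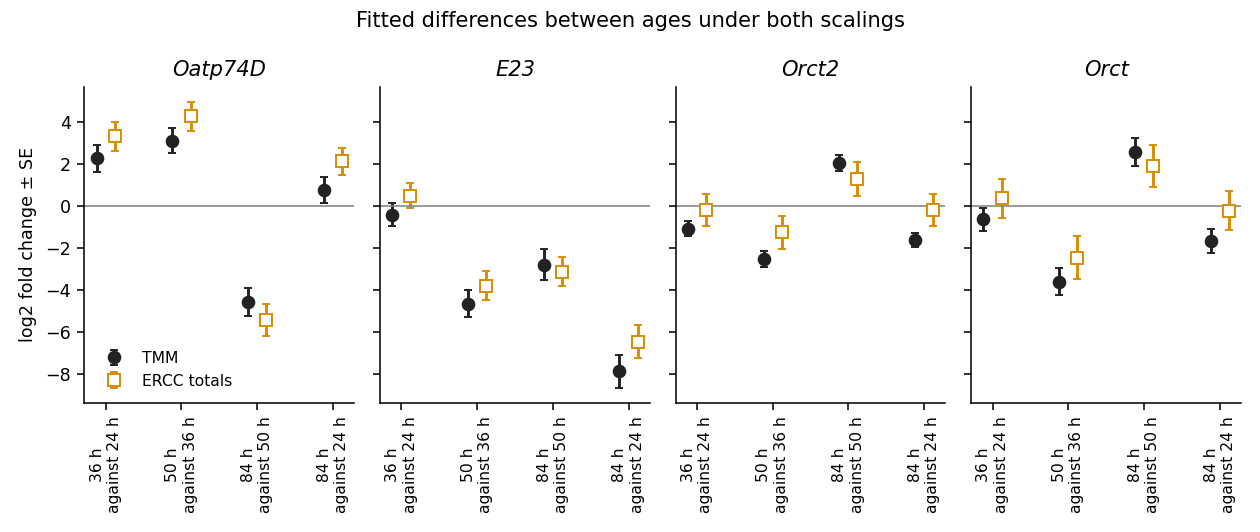
Fitted log2 fold change of the later over the earlier age, with its standard error, for each transporter in 4 comparisons. Filled circles use TMM scaling and open squares ERCC totals. Oatp74D is above 0 and E23 below 0 for 50 h against 36 h under both, and E23 and Orct cross 0 between the scalings for 36 h against 24 h.

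To find transcripts with a like course, each gene's log2(CPM + 1) over the 12 libraries was centred on its own mean and compared by root mean square difference, given here in log2 units, over all genes tested. The genes most like E23 were lin-28 (0.74) and Imp (1.29), RNA-binding proteins of young neuroblasts, then the laminin gene LanB1 (1.59), CG42566 (1.68) and CG34384 (1.74). The level of lin-28 was 148.5 ± 32.7, 96.0 ± 46.4, 1.98 ± 0.533 and 0.596 ± 0.134 CPM at 24, 36, 50 and 84 h, with the drop in the same interval as that of E23. Those most like Oatp74D were CG31690 (1.09), ytr (1.18), CG32982 (1.18), CG6333 (1.26) and the zinc-finger gene mamo (1.27). CG31690, CG32982, CG6333 and mamo averaged 14.2 CPM or less at any age, and ytr had 5363 ± 933 CPM at 50 h, against 1860 ± 571 CPM at 36 h.

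Orct and Orct2 were each the nearest gene to the other (0.47). Next for Orct2 came CG17075 (0.52), the dystrophin gene Dys (0.53), CG5758 (0.56) and the giant nesprin gene Msp-300 (0.60). For Orct they were CG5758 (0.57), Dys (0.62), Msp-300 (0.73) and the kinase gene sff (0.73). Dys averaged 191 ± 30.5, 74.5 ± 3.70, 28.1 ± 2.43 and 48.2 ± 1.99 CPM from 24 to 84 h, so its course dipped at 50 h as those of Orct and Orct2 did. E23 ranked 7977 of 7977 in likeness to Oatp74D, and Orct and Orct2 ranked 7962 and 7961. The profiles were not scaled by size, and the genes were chosen on large differences between 50 h and 36 h. Ranks near the last follow from that for genes with opposite changes, and nothing is read from them. With the 4 age means in place of the 12 libraries, 4 of the 5 genes nearest E23 were the same, 3 of 5 for Oatp74D and 2 of 5 each for Orct and Orct2, with Orct and Orct2 still nearest to each other. Many genes shared the bare order: 12.9% of all genes tested had their highest mean at 50 h and lowest at 24 h like Oatp74D, 13.3% highest at 24 h and lowest at 84 h like E23, and 12.1% highest at 24 h and lowest at 50 h like Orct and Orct2.

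**Figure D4:**
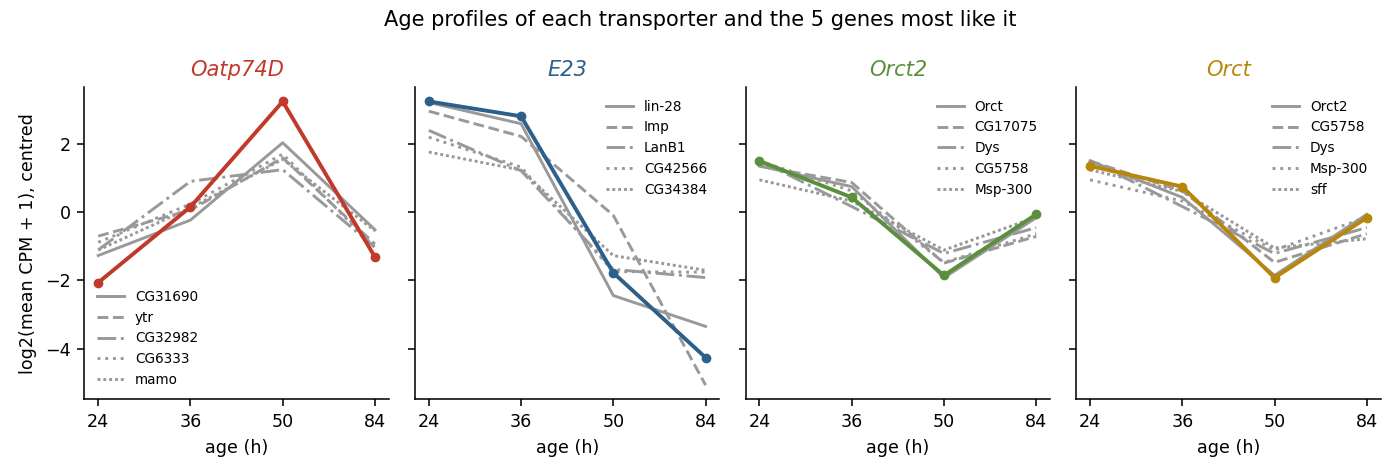
Log2(mean CPM + 1) at each age, centred on its mean over the 4 ages, against age in h, for each transporter (coloured) and the 5 genes most like it (grey). Oatp74D and its group peak at 50 h, E23 and its group drop after 36 h, and Orct2 and Orct, each in the other's group, dip at 50 h.

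On the chromosomes, as placed by the Ensembl annotation of BDGP6, a later build than the dm3 and BDGP5 named in the submitters' processing notes, Oatp74D lies on 3L, E23 on 2L and Orct2 and Orct side by side on 3R on the same strand. CG6333, one of the genes most like Oatp74D, is also its neighbour on one side, on the opposite strand. It averaged 0.875 ± 0.784, 3.08 ± 1.03, 10.2 ± 4.68 and 0.683 ± 0.629 CPM at 24, 36, 50 and 84 h. The gene on the other side, U4-U6-60K, was also higher at 50 h, with 25.1 ± 8.68 CPM against 10.3 ± 7.47 CPM at 36 h. It did not fall after that, with its highest level, 81.0 ± 10.5 CPM, at 84 h. U4-U6-60K is a splicing factor gene. The gene edin overlaps Oatp74D on the same strand. It averaged 0.0, 0.576 ± 0.686, 1.55 ± 0.991 and 0.215 ± 0.187 CPM at 24, 36, 50 and 84 h, highest at 50 h like Oatp74D. Whether reads of one were assigned to the other was not tested. Beside the Orct pair, jar on one side averaged 29.0 ± 9.06, 33.6 ± 2.65, 48.3 ± 5.16 and 58.9 ± 5.75 CPM over the ages and CG13611 on the other 0.923 ± 0.905 CPM or less. Both neighbours of E23, CG15408 and CG8838, averaged under 1 CPM at every age. In that annotation CG6333 and Oatp74D do not overlap.

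Most relatives of the 4 transporters were low or were not called. Of 7 other organic anion transporting genes, 4 were under 1 CPM at every age and 2 could be tested, Oatp30B and Oatp33Ea, with 0 called in any comparison (edgeR, adjusted p under 0.05). With 0.451% to 10.7% of all genes called in a given direction, 0 among 2 is near the background. Of the other organic cation and anion transporter genes 23 were found, 14 of them under 1 CPM at every age. Of the 8 tested, CG3168 rose at 84 h against 24 h, with 9.26 ± 6.0 against 1.67 ± 1.76 CPM (log2 2.43 ± 0.75, adjusted p = 0.0255), though not without replicate 3 of 84 h (adjusted p = 0.203, range over the alternatives 0.00263 to 0.203), nor without replicate 1 or 3 of 24 h. With 8.16% of all genes called higher in that comparison, 1 among 8 is near the background.

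Among 14 other ABCG genes 9 were tested and 5 of these, Atet, CG3164, CG4822, CG9663 and w, were above 10 CPM at every age. Of the 9 tested, 1 was called higher at 50 h against 36 h, beside 1.88% of all genes. For 84 h against 50 h 1 was, beside 1.17%, and for 84 h against 24 h 2 were, beside 8.16%. The eye pigment transporter gene w rose at 50 h, with 605 ± 327 against 160 ± 69.0 CPM at 36 h (log2 1.92 ± 0.46, adjusted p = 0.0458). The call was lost in 10 of the 12 leave-outs (adjusted p up to 0.156, range over the alternatives 2.96e-21 to 0.156). At 84 h against 24 h w rose 3.65-fold (adjusted p = 0.0178) and its partner bw 4.49-fold (adjusted p = 0.0200), calls lost in 5 and 4 leave-outs. CG3164 rose 2.07-fold at 84 h against 50 h (adjusted p = 0.00557, range 2.41e-05 to 0.956, the last under ERCC totals). Atet, known for loading ecdysone into vesicles in the gland that makes it, was not called, with 74.5 ± 24.0, 63.6 ± 18.0, 48.3 ± 10.3 and 64.4 ± 6.84 CPM over the ages.

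Of 8 multidrug and other ABC exporter genes found, 6 were tested. For 84 h against 50 h 1 was called higher, beside 1.17% of all genes. For 84 h against 24 h 1 was called higher and 1 lower, beside 8.16% and 10.7%, near the background among so few. Mdr49, a P-glycoprotein gene, rose at 84 h to 27.8 ± 12.1 CPM, against 1.08 ± 1.13 CPM at 50 h (log2 4.60 ± 0.86, adjusted p = 0.00329), and 16.2-fold against 24 h (adjusted p = 0.00148). Both calls held in all alternatives, with adjusted p up to 0.0246 and 0.0121, but the sizes moved. The log2 value of 4.60 ran from 4.08 without replicate 2 of 50 h to 5.73 without replicate 1 of 50 h, and the 4.01 behind the 16.2-fold ran from 3.49 without replicate 1 of 24 h to 5.38 without replicate 2 of 24 h. CG5789 fell 1.74-fold at 84 h against 24 h (log2 -0.80 ± 0.26, adjusted p = 0.0359), which turned to an uncalled 0.68 under ERCC totals and was lost in 5 leave-outs (range 0.00125 to 0.345). Of 25 listed transporter genes tested apart from the 4, 0 were called lower at 50 h than at 36 h, 1 at an unadjusted p under 0.05. With 2.37% of all genes called lower, a count of 0 among so few is near the background. The DESeq2 Wald test and the limma fit on TPM also called 0 of all listed genes lower, and the fit with a replicate block 1.

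The ecdysone pathway around the carriers was uneven. In the list of 29 receptor and response genes found, 21 were tested, and 3 rose and 0 fell at 50 h against 36 h, beside 1.88% and 2.37% of all genes. These were the receptor EcR (log2 0.77 ± 0.18, adjusted p = 0.0113, lost in 4 leave-outs and under ERCC totals, up to 0.0942) and the ecdysone-response factors br (1.26 ± 0.23, adjusted p = 0.00221) and Eip93F (3.95 ± 0.56, adjusted p = 0.00310). The list's median log2 value was 0.38, beside 0.03 over all genes. The partner receptor usp stayed between 29.4 and 33.5 CPM on average. At 36 h against 24 h br was the 1 member called, as higher (1.92 ± 0.24, adjusted p = 9.79e-05), beside 0.451% of all genes. At 84 h against 50 h 2 rose and 4 fell, beside 1.17% and 1.89% of all genes. Those that fell were EcR, br, the nuclear receptor gene Eip75B and the coactivator gene tai, which had 304 ± 123 CPM at 84 h, against 718 ± 104 CPM at 50 h (log2 -1.24 ± 0.22, adjusted p = 0.00140). Under ERCC totals none of these 4 falls was called. Those that rose were Eip93F and the lactate dehydrogenase gene ImpL3, 2.71-fold (adjusted p = 0.0221, range 1.35e-12 to 0.956), the call of ImpL3 being lost in 6 leave-outs. At 84 h against 24 h 4 rose and 3 fell, beside 8.16% and 10.7% of all genes, so that the share that fell was near the background. These 3 falls were not called under ERCC totals. Of those that rose, Eip93F was 128.5-fold higher (edgeR, adjusted p = 1.73e-05), ImpL3 3.89-fold (adjusted p = 0.000556) and br 3.57-fold (adjusted p = 8.8e-06). Their calls held in all alternatives. Eip74EF, an ETS factor gene of the early ecdysone response, rose 7.78-fold, with 15.7 ± 0.455 against 2.03 ± 1.04 CPM (adjusted p = 0.0129, range 0.000182 to 0.0556), the call being lost without replicate 1 or 2 of 24 h.

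Genes that make ecdysone were mostly low. Of 14 genes of synthesis and turnover found, 2 reached 10 CPM at some age, phm and nvd had 0 counts in the 12 libraries, and spok averaged 1.02 CPM or less. The hydroxylase gene shd, whose product makes the active hormone in target tissues, had 4.55 ± 3.29, 8.37 ± 2.35, 7.86 ± 2.91 and 11.3 ± 4.73 CPM over the ages and was not called. The sterol transport gene Npc1a, at 83.9 to 113 CPM on average, was not called. Of the 5 tested, dib fell at 84 h, with 0 counts, against 46 counts at 50 h (adjusted p = 0.0249), at least 5.95-fold lower against a floor of 3 counts per library. This call was lost in 5 leave-outs and under ERCC totals (range 0.00303 to 0.151). Over all genes 1.89% were called lower in that comparison. Of the 4 genes of ecdysone release by vesicles, Atet, Syt1, Rab3 and cac, 0 were called in any of the 4 comparisons. With 0.451% to 10.7% of all genes called in a given direction, 0 among so few is near the background.

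Over the 7 lists together 54 genes were tested. At 36 h against 24 h 1 rose and 0 fell, beside 0.451% each way over all genes. For 50 h against 36 h the numbers were 4 and 0, beside 1.88% and 2.37%, and the 0 is near the background. For 84 h against 50 h they were 4 and 5, beside 1.17% and 1.89%. For 84 h against 24 h they were 8 and 4, beside 8.16% and 10.7%, so the share that fell was not above the background.

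**Figure D5:**
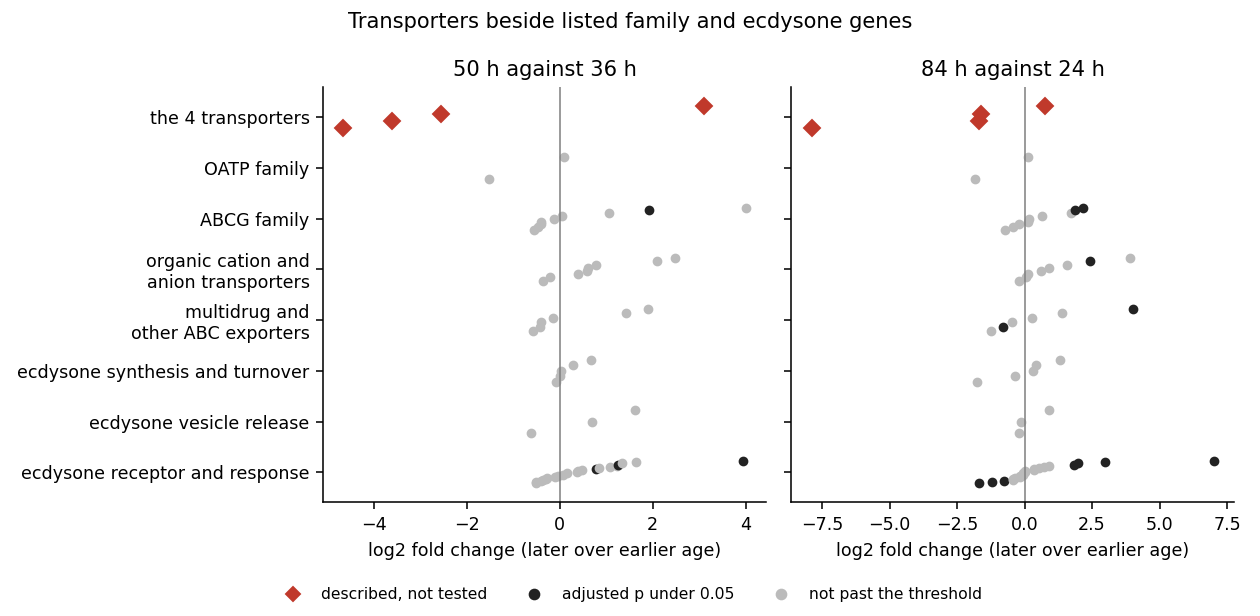
Fitted log2 fold change of the later over the earlier age for the 4 transporters (diamonds, described without a test) and for the listed genes tested (circles, dark where the adjusted p was under 0.05). For 50 h against 36 h, 4 listed genes are called higher and 0 lower, while E23, Orct and Orct2 lie between -4.66 and -2.55.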

How the data were processed

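RNA of sorted type II neuroblasts was measured in 12 libraries, 3 per age. The authors deposited counts per gene symbol and ERCC RNA, not scaled, and TPM with the ERCC rows left out by the authors. HTSeq 0.6.1p1, STAR 2.4.0i, Bowtie2 2.1.0, cutadapt 1.7.1 and CASAVA are named in the submitters' processing notes, with the builds dm3, BDGP5 and mm10. What each did, the strand setting and the making of the TPM are not given there. No sequences are shown.

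The 92 ERCC rows and 1 row with no symbol (at most 8.87e-05% of a library) were kept out. edgeR 4.0.16 in R 4.3.3 (TMM, filterByExpr by age, robust quasi-likelihood fit over all 12 libraries, 8 residual degrees of freedom) kept 7978 genes with 99.85% of the gene counts, at a biological coefficient of variation of 36.2%. P-values are two-sided, adjusted by Benjamini and Hochberg over all genes within each of 4 comparisons, with a threshold of 0.05. SE is the log2 change over the square root of F. The code was also run on counts simulated from the fitted spread. That setting is simpler than these data, and no error rate is taken from it. Alternatives used DESeq2 1.42.0 (its size factors and its Wald test), ERCC totals, no filter, a replicate block, sorted cell number, limma 3.58.1 on log2(TPM + 1), and leaving out each library.

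Members, gene lists and the rule for named genes (the 4 members, the 5 genes most like each, neighbours, markers, and up to 4 called genes per list and comparison by size) were chosen with earlier results of these data known. Of 105 listed symbols 98 were found. EcR and Eip75B at 84 h against 50 h, and the genes that did not pass, were named outside that rule after their values were seen.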

Additional observations from a re-analysis of the deposited data

How the results depend on the processing

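Values of the 4 transporters are log2 changes of the later over the earlier age. Over all alternatives 275 such values moved by less than the spread between libraries, 26 moved by more and 3 turned. Scaling to ERCC totals gave, for 36 h against 24 h, then 50 h against 36 h, then 84 h against 50 h and last 84 h against 24 h, 3.30, 4.26, -5.44 and 2.12 for Oatp74D, 0.35 (turned), -2.48, 1.89 and -0.24 for Orct, and -0.20, -1.27, 1.26 and -0.21 for Orct2. For E23 it gave 0.48 (turned) at 36 h against 24 h and -6.47 at 84 h against 24 h, and the age of the highest mean moved to 36 h for E23 and for Orct. A covariate for sorted cell number gave Orct -2.15 at 36 h against 24 h, 3.18 at 84 h against 50 h and -2.11 at 84 h against 24 h, and Orct2 -1.38 at 36 h against 24 h. On log2(TPM + 1) E23 had -8.49 at 84 h against 24 h, a value set by the pseudocount, since E23 is listed at 0 TPM in all 3 libraries of 84 h despite 15 to 22 counts, and no measure of its change. Orct had -2.56 at 50 h against 36 h and 1.91 at 84 h against 50 h. The pseudocount shrinks low values such as those of Orct. Otherwise the cause was not tested.

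Leaving out 1 library gave ranges for Oatp74D of 2.85 to 3.65 (50 h against 36 h), -5.45 to -4.20 (84 h against 50 h) and -0.09 to 1.16 (84 h against 24 h). For E23 they were -5.81 to -4.23 (50 h against 36 h) and -3.23 to -1.64 (84 h against 50 h), and for Orct -1.53 to -0.34 (36 h against 24 h), -4.32 to -2.73 (50 h against 36 h) and 2.25 to 3.28 (84 h against 50 h).

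Listed genes called for 36 h against 24 h numbered 2 higher and 1 lower with no filter or with the DESeq2 Wald test, and 1 to 2 higher and 0 to 1 lower over the leave-outs (2 higher without 84 h replicate 1, 1 lower without 24 h replicate 3 or 36 h replicate 1). For 50 h against 36 h there were 8 higher with ERCC totals, 9 with no filter and 7 with DESeq2, and 2 to 6 over the leave-outs, with 2 without replicate 2 or 3 of 36 h or replicate 1 or 2 of 50 h. With ERCC totals there were 2 higher and 0 lower for 84 h against 50 h, and 20 higher and 0 lower for 84 h against 24 h, the last with 5 to 8 higher over the leave-outs (5 without replicate 3 of 84 h). CG5789 at 84 h against 24 h turned to 0.68 with ERCC totals. With the replicate number as a block, 2 listed genes were higher for 36 h against 24 h and 1 lower for 50 h against 36 h, and the calls of ImpL3 at 84 h against 50 h (0.0676) and w at 50 h against 36 h (0.0576) were lost. Whether the numbers pair the libraries was not settled. Deviations from the age means correlated at -0.107 to 0.178 for the 18 pairs with the same number, 4 of them over 0.1. For the 36 pairs with different numbers they correlated at -0.146 to 0.152, 3 of them over 0.1. Over all genes, leave-outs gave 20 to 80 higher and 9 to 100 lower calls for 36 h against 24 h, against 36 and 36 with all libraries, and 62 to 195 higher and 95 to 249 lower for 50 h against 36 h, against 150 and 189. At 2 to 9 counts per library, the depth limits what can be said of Orct at 50 h.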

Other observations

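At 36 h the libraries of Oatp74D and E23 were spread in opposite directions. Replicate 1 had the highest Oatp74D of the 3 (127 CPM) and the lowest E23 (327 CPM). The same library had the highest levels at that age of Syp (16850 CPM, against 9561 and 7938 CPM in replicates 2 and 3) and br (511, against 297 and 257 CPM), both of which average higher at 50 h than at 36 h. Imp, which averages lower at 50 h, did not follow, with 38090 CPM in replicate 1 and 40650 and 27610 CPM in replicates 2 and 3. At 50 h replicate 2 had the lowest Oatp74D (569 CPM), the highest E23 (45.5 CPM) and the highest Imp of that age (7854, against 7363 and 6230 CPM), but also the highest Syp (31330 CPM). At 84 h replicate 1 had the highest Oatp74D (52.0 CPM) together with the highest E23 (3.79 CPM), Syp (33140 CPM), br (403 CPM) and Imp (283 CPM, against 185 and 217 CPM in replicates 2 and 3). These libraries were picked out after their values were seen, and no test was made of them.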
